A study of Mus musculus with 8 samples.

Results

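The genes described here are 44 genes that type I interferons switch on, read by symbol from a count table of 51810 genes of mouse microglia; all 44 were in the table. They comprise 5 sensors of foreign RNA and DNA (Ddx58, Ifih1, Dhx58, Zbp1, Ifi204), 5 transcription factors and their partners (Irf7, Irf9, Stat2, Sp100, Ifi35), and 8 genes of the ISG15 system, ubiquitin ligases and PARPs (Isg15, Usp18, Herc6, Trim25, Trim30a, Dtx3l, Parp9, Parp14). The 12 RNA-binding and RNA-degrading effectors are Ifit1, Ifit2, Ifit3, Ifit3b, Oas1a, Oas2, Oas3, Oasl1, Oasl2, Eif2ak2, Isg20 and Samd9l. The remainder are 2 nucleotide enzymes (Rsad2, Cmpk2), 3 GTPases (Mx1, Gbp2, Gbp3), 4 membrane proteins (Ifitm3, Bst2, Ifi27l2a, Rtp4), 4 genes of growth, death and other roles (Slfn2, Slfn5, Xaf1, Ifi44) and the chemokine Cxcl10.

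The groups were white matter at 21 months, grey matter at 21 months, white matter at 4 months and grey matter at 4 months, with 2 libraries each and 8 in all; 21-month groups are called aged and 4-month groups young. All came from wild-type mice whose strain and sex the labels do not give. Cells were freed of myelin on a Percoll gradient and drawn out with magnetic beads against CD11b, a protein of microglia that neutrophils and monocytes also carry, and their polyadenylated RNA was read on an Ion Proton sequencer. For grey matter samples, too, the region label reads corpus callosum, so the assignment to a region follows the titles and the tissue label. Whether a group's libraries stem from different mice is not stated, and p-values then measure only the spread between these libraries, which may be technical.

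Type I interferons bind a receptor made of Ifnar1 and Ifnar2 and act through the kinases Jak1 and Tyk2, which phosphorylate transcription factors such as Stat2. Stat2 joins Irf9 in a complex that binds a promoter element, the interferon-stimulated response element (ISRE), and switches on antiviral genes. Microglia with high levels of such genes are known in aged and injured brain.

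Levels are in counts scaled to library size (CPM, with TMM scaling), and a fold change is on the log2 scale with its standard error. Library totals ran from 3273258 to 6315782 counts, so that 1 count was worth 0.174 to 0.361 CPM. Mean counts of the 44 genes over the 8 libraries were at least 50 for 28 genes and under 50 for 16. Ifi44 had 0 to 5 counts per library and did not pass the filter on low counts, which leaves 43 genes tested.

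The first young white matter library had another makeup than the rest. It held 64980 CPM over 12 oligodendrocyte markers, against 204.3 to 817.7 CPM in the other 7, and 3461 CPM over 12 markers of homeostatic microglia, against 13560 to 20880 CPM. None of those 12 microglia markers was at 0 in any library, so the labelled cell type was present throughout. The first young grey matter library had the highest sums of neutrophil markers, 4525 CPM against 85.11 to 2343 CPM in the others, and of red blood cell markers, 26010 CPM against 184.3 to 6897 CPM. Among the ependymal and choroid plexus markers, the second aged white matter library reached 11740 CPM, and the young white matter libraries 5406 and 7093 CPM. In the remaining 5 libraries that sum was 30.74 to 468.1 CPM.

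The 44 genes together summed to 1411 and 1290 CPM in aged white matter, 1313 and 1084 CPM in aged grey matter, 382.9 and 932.7 CPM in young white matter, and 1389 and 973.8 CPM in young grey matter. The first young white matter library, called the myelin-rich library from here on, was the lowest, and its partner was the lowest of the remaining 7. Set against the summed homeostatic microglia markers, the genes held 10.4 and 9.42 CPM per 100 CPM in aged white matter, 9.62 and 6.62 in aged grey matter, 11.1 and 6.61 in young white matter, and 6.65 and 5.7 in young grey matter. On that ratio the myelin-rich library was the highest of all, where it had been the lowest in CPM. Of its 382.9 CPM, Xaf1 alone gave 76.1 CPM, against 11.4 to 19.6 CPM of Xaf1 in the other libraries. The top rank in the ratio rests on that gene, and the ratio of the other genes without Xaf1 is not given here. Any difference of the microglia markers between groups is part of the ratio. In bulk samples such as these, fewer cells of a type and less RNA per cell cannot be told apart.

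**Figure D1:**
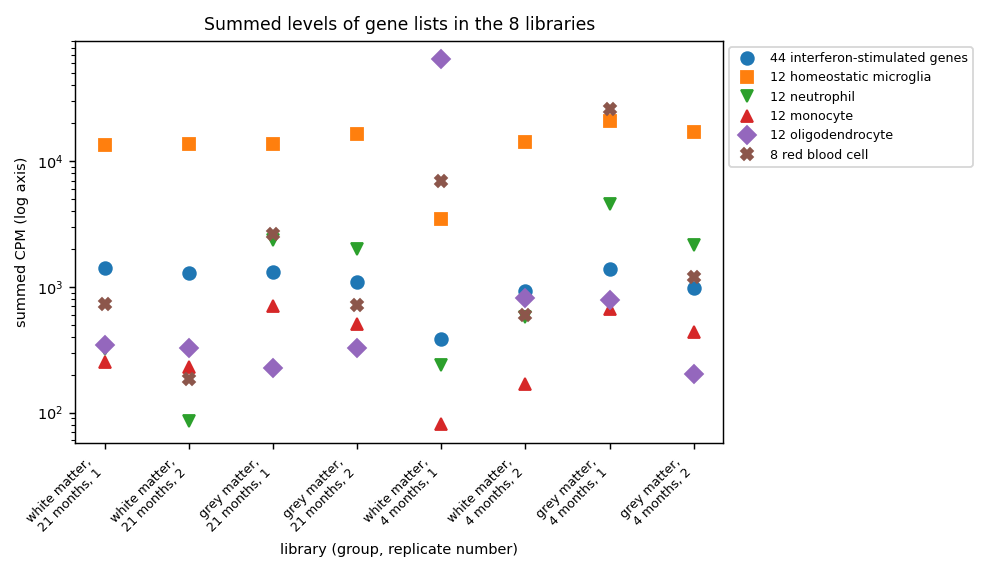
Summed CPM (log axis) of the 44 interferon-stimulated genes and of marker lists in each of the 8 libraries (x axis: group and replicate number), 1 symbol per list. The first young white matter library has 64980 CPM of oligodendrocyte markers and the lowest sum of interferon-stimulated genes, 382.9 CPM, and the first young grey matter library has the most neutrophil marker RNA, 4525 CPM.

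Cxcl10 encodes a chemokine that draws activated T cells through the receptor Cxcr3. Its level was 74.9 and 84.9 CPM in aged white matter, 27.4 and 38.3 CPM in aged grey matter, 7.58 and 26.9 CPM in young white matter, and 29.2 and 12.2 CPM in young grey matter. Both aged white matter libraries lay above all other 6. Among the 21-month libraries fitted alone it was higher in white matter by 1.28 ± 0.209 (log2, SE; edgeR quasi-likelihood test, adjusted p = 0.0139). With all 8 libraries the difference was 1.28 ± 0.639 (adjusted p = 1), and without the myelin-rich library 1.28 ± 0.379 (adjusted p = 0.499). In the 21-month fit, Cxcl10 was the only 1 of 42 tested interferon-stimulated genes called higher and none was called lower, beside 0.985% of all genes called higher, 0.591% called lower and 1.58% called either way. Cxcl10 shares bases with the gene Art3 in RefSeq, which had 1.91 to 18.9 CPM, and the use of strand in counting is not given in the sources used here. The 12 T and NK cell markers, of the cells that Cxcl10 attracts, summed to 24.49 and 23.19 CPM in aged white matter and 19.69 and 12.77 CPM in aged grey matter. In young white matter the sums were 13.71 and 13.47 CPM, and in young grey matter 36.66 and 14.73 CPM. The markers did not all run the same way. Cd3e, Cd3g, Cd8a and Trbc2 were higher in both aged white than in both aged grey matter libraries. Gzma, Gzmb and Ncr1 were lower, and the rest overlapped, beside 20.9% of all genes higher and 19.4% lower. Each was at 6.41 CPM or less in those libraries. Of the 36.66 CPM in young grey matter, Cd4 gave 10.8 CPM and Gzma 8.34 CPM. The part of such cells in the result was not tested.

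Shown next are promoter stretches whose letters match the ISRE core, GAAA followed by any 2 bases and another GAAA on either strand. They were read from the RefSeq promoter table of GRCm38.p6, which holds windows from 250 bases before to 50 after each start site, and are written 5′ to 3′ along the gene with core matches in capitals. Cxcl10 lies at chr5:92349053-92349139 on the minus strand, Ifit3 at chr19:34583333-34583456 and Ifit3b at chr19:34607729-34607852 on the plus strand, and Oas1a at chr5:120907526-120907585 on the minus strand.
Cxcl10: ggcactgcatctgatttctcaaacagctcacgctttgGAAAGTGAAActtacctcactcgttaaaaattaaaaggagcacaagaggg
Ifit3: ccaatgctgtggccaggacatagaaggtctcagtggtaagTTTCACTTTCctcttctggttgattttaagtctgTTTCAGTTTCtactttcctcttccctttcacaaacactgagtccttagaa
Ifit3b: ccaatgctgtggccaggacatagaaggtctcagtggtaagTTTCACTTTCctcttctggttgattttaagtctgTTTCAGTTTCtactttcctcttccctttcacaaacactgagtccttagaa
Oas1a: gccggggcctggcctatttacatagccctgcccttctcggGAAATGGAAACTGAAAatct
The Cxcl10 core starts 213 bases before the start site, and the Oas1a stretch holds 2 cores, 20 and 14 bases before it, that share bases. Ifit3 and Ifit3b carry the same letters over the stretch shown, with 2 cores on the other strand. They are close copies of one another, so reads common to both may have been split between them.

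Of the 44 genes, 34 were in the promoter table. The ISRE core occurred in the windows of 18 of these 34 genes (52.9%), against 1079 of 27025 genes (3.99%) and 3.44% of all windows of the same length. Without the myelin-rich library the median log2 difference of 21 over 4 months in white matter was 0.58 for the 18 tested genes with the core, 16 of them above 0, and 0.58 for the 15 without it, 14 of them above 0. These matches describe letters in the windows and are not binding sites found in these cells.

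Among the sensors, Ifi204, a member of the p200 family of DNA-binding proteins, was, like Cxcl10, highest in aged white matter. It had 53.7 and 45.4 CPM in aged white matter, 31.7 and 23.6 CPM in aged grey matter, 7.58 and 17.2 CPM in young white matter, and 27.8 and 12.4 CPM in young grey matter. Ifih1, which encodes MDA5, a sensor of long double-stranded RNA, had 43.3 and 48.1 CPM in aged white matter, 38.4 and 29.7 CPM in aged grey matter, 2.17 and 30.7 CPM in young white matter, and 21.9 and 30.2 CPM in young grey matter. For both genes the aged white matter libraries were above all other 6. Ddx58, which encodes RIG-I, a sensor of short double-stranded RNA, had 30.1 and 39 CPM in aged white matter, 37 and 35.5 CPM in aged grey matter, 9.74 and 32.2 CPM in young white matter, and 40.8 and 34.2 CPM in young grey matter. Both young white matter libraries of Ddx58 were below both young grey matter ones, and the aged regions overlapped. Dhx58, the regulator LGP2, and Zbp1, a sensor of Z-form nucleic acids, had 1.08 to 16.7 CPM and 1.44 to 12.9 CPM over the libraries, and both were lowest in the myelin-rich one.

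Irf9, the DNA-binding part of the interferon complex, differed with age in opposite ways in the regions. It had 48.7 and 44.4 CPM in aged white matter, 41.8 and 35 CPM in aged grey matter, 22.7 and 37.2 CPM in young white matter, and 63.9 and 50.9 CPM in young grey matter. Neither pair of ages overlapped, with aged libraries above young ones in white matter and below them in grey matter. The age by region difference was 1.21 ± 0.499 with all libraries (edgeR, adjusted p = 1) and 0.88 ± 0.374 without the myelin-rich library (adjusted p = 1), so it did not pass the test over all genes. Stat2, its partner, had 57 and 52.5 CPM in aged white matter, 45.7 and 49.7 CPM in aged grey matter, 39.7 and 61.1 CPM in young white matter, and 47.3 and 47.7 CPM in young grey matter. Its young white matter libraries were the lowest and the highest of the 8, so the ages overlapped in white matter.

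Of the ISG15 system, Usp18, which removes ISG15 from proteins and dampens receptor signalling, had 0.361 to 7.15 CPM, with both aged white matter libraries above the other 6. That order rests on few counts, 22 and 29 in aged white matter and 19 and 13 in aged grey matter. Young white matter had 1 and 6 counts, and young grey matter 14 and 17. Trim25, a ubiquitin ligase that acts on RIG-I, had 154 and 98.9 CPM in aged white matter, 160 and 117 CPM in aged grey matter, 34.6 and 93.3 CPM in young white matter, and 155 and 107 CPM in young grey matter. Its 21-month regions overlapped, as did its ages in grey matter. Parp14, an ADP-ribosyltransferase, had 169 and 147 CPM in aged white matter, 140 and 138 CPM in aged grey matter, 15.5 and 142 CPM in young white matter, and 120 and 123 CPM in young grey matter. Both aged white matter libraries of Parp14 were the highest, and only the myelin-rich library was under 120 CPM. Dtx3l and Parp9, whose products act as a pair, overlap each other in the genome, and reads from the shared stretch cannot be assigned here. The same limit holds for families of close copies such as the Ifit, Oas, Gbp and Slfn genes and Ifi204.

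Among the effectors, Ifit3, whose product binds viral RNA with Ifit1, had 13.7 and 14.8 CPM in aged white matter, 6.7 and 6.66 CPM in aged grey matter, 2.53 and 4.99 CPM in young white matter, and 3.3 and 4 CPM in young grey matter. The groups were ordered without overlap from aged white matter through aged grey matter to the young groups, which overlapped. Samd9l, an inhibitor of translation, had 36.3 and 23.7 CPM in aged white matter, 26 and 10.8 CPM in aged grey matter, 4.33 and 8.73 CPM in young white matter, and 19.6 and 13.6 CPM in young grey matter. Its regions overlapped at 21 months, and both young white matter libraries were below all others.

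Eif2ak2, which encodes PKR, a kinase that halts translation on double-stranded RNA, had 60 and 62.4 CPM in aged white matter, 51.2 and 46.3 CPM in aged grey matter, 2.89 and 40.9 CPM in young white matter, and 31.4 and 46.7 CPM in young grey matter. The aged white matter libraries were the highest. Oasl2, of the oligoadenylate synthetase family, had 18.4 and 29.6 CPM in aged white matter, 29.7 and 24.7 CPM in aged grey matter, 2.17 and 9.98 CPM in young white matter, and 20.3 and 20.4 CPM in young grey matter. Both young white matter libraries of Oasl2 were below the other 6, and the aged regions overlapped.

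Oas2, a synthetase of the second messenger that activates RNase L, had 9.18 and 7.65 CPM in aged white matter, 12.6 and 5 CPM in aged grey matter, 0.722 and 4.49 CPM in young white matter, and 8.34 and 9.82 CPM in young grey matter. Oas3, of the same family, had 7.06 and 3.7 CPM in aged white matter, 14.4 and 7.49 CPM in aged grey matter, 2.53 and 7.73 CPM in young white matter, and 22.6 and 7.09 CPM in young grey matter. Oas3 was thus higher in both aged grey matter than in both aged white matter libraries, while Oas2 overlapped between those groups. Isg20, an exonuclease, had 6.83 and 6.41 CPM in aged white matter, 13.2 and 8.88 CPM in aged grey matter, 8.66 and 5.49 CPM in young white matter, and 83.2 and 6.91 CPM in young grey matter.

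Rsad2, which encodes viperin, an enzyme that makes a chain-terminating nucleotide, had 5.65 and 8.88 CPM in aged white matter, 9.85 and 5 CPM in aged grey matter, 10.1 and 5.99 CPM in young white matter, and 47.3 and 5.46 CPM in young grey matter. Isg20 and Rsad2 both stood out in the first young grey matter library alone, which is the one with the most neutrophil and red blood cell marker RNA; the part of those cells in these values was not tested. Cmpk2, the neighbour of Rsad2 and a kinase that supplies its substrate, had 3.3 and 3.21 CPM in aged white matter, 6.7 and 0.833 CPM in aged grey matter, 0.361 and 2 CPM in young white matter, and 2.43 and 2.73 CPM in young grey matter. Cmpk2 did not stand out in that library.

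The GTPase Gbp2, a guanylate-binding protein that coats intracellular microbes, had 13.2 and 11.1 CPM in aged white matter, 15 and 8.33 CPM in aged grey matter, 2.89 and 7.98 CPM in young white matter, and 14.8 and 7.82 CPM in young grey matter. Gbp3, of the same family, had 12.7 and 15.5 CPM in aged white matter, 18.1 and 15.8 CPM in aged grey matter, 2.53 and 7.98 CPM in young white matter, and 14.6 and 11.5 CPM in young grey matter. For both genes the young white matter libraries were below the aged ones, and Gbp3 was higher in aged than in young libraries of grey matter too.

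Among the membrane proteins, Bst2, or tetherin, which holds budding viruses at the cell surface, had 18.1 and 18.7 CPM in aged white matter, 12.4 and 6.11 CPM in aged grey matter, 1.44 and 12 CPM in young white matter, and 15.5 and 9.82 CPM in young grey matter. The aged white matter libraries of Bst2 were the highest. Ifitm3, which blocks viral entry, had 59.3 and 53.3 CPM in aged white matter, 109 and 71.3 CPM in aged grey matter, 24.5 and 40.7 CPM in young white matter, and 161 and 55.3 CPM in young grey matter. Ifitm3 was lower in white than in grey matter at both ages with no overlap, and the neutrophil and monocyte marker sums were likewise lower in white matter at both ages; their part in this was not tested. Those neutrophil sums were 322.5 and 85.11 CPM in aged white matter, 2343 and 1990 CPM in aged grey matter, 238.9 and 575.7 CPM in young white matter, and 4525 and 2159 CPM in young grey matter.

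The monocyte marker sums, over 12 genes, were 253.8 and 228.7 CPM in aged white matter, 700.7 and 507.6 CPM in aged grey matter, 80.47 and 169.1 CPM in young white matter, and 672.3 and 436.7 CPM in young grey matter. Of the 12 neutrophil markers, 1 was at 0 in the second aged and 1 in the first young white matter library, and of the monocyte markers 1 was at 0, in the first young white matter library. Slfn5, a member of the Schlafen family, had 51.3 and 42.9 CPM in aged white matter, 59.9 and 43 CPM in aged grey matter, 6.13 and 23.4 CPM in young white matter, and 28 and 28.9 CPM in young grey matter. All 4 aged libraries of Slfn5 were above all 4 young ones. Slfn2, of the same family, had 47.1 and 25.2 CPM in aged white matter, 24.8 and 21.6 CPM in aged grey matter, 13 and 21.5 CPM in young white matter, and 43.4 and 22.4 CPM in young grey matter. Slfn2 was higher in both aged than in both young white matter libraries, and its ages overlapped in grey matter.

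**Figure D2:**
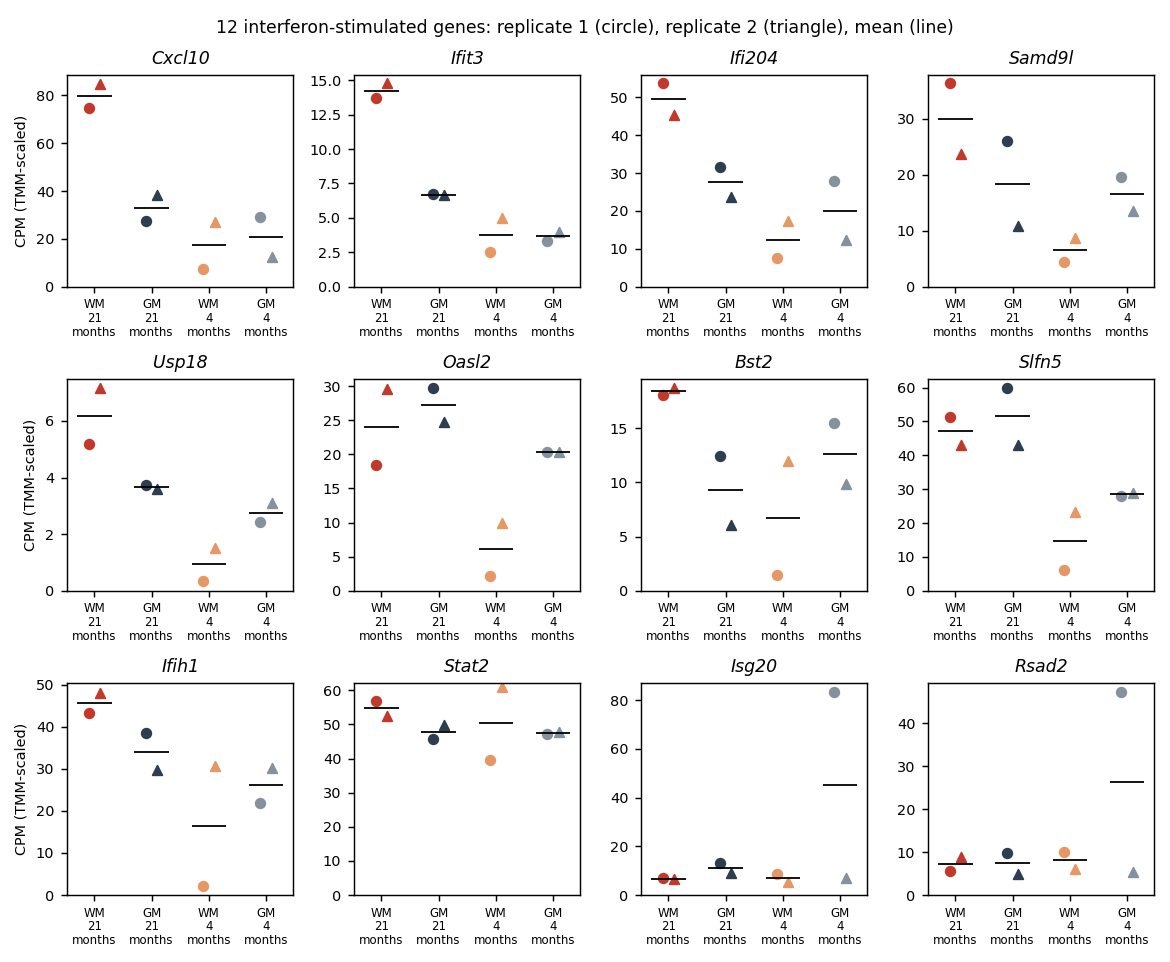
CPM (y axis, from 0) of 12 interferon-stimulated genes in the 4 groups (x axis; WM white matter, GM grey matter), with replicate 1 as a circle, replicate 2 as a triangle and the group mean as a line. Both aged white matter libraries lie above all others for Cxcl10, Ifit3, Ifi204, Usp18, Bst2 and Ifih1. Isg20 and Rsad2 stand out in 1 library of young grey matter, at 83.2 and 47.3 CPM. The panels are a choice among the 43 tested genes. The share of all genes with both aged white matter libraries on top was not counted. Of the 43, 9 were highest in the first and 12 in the second aged white matter library, beside 9.66% and 10.8% of all genes.

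The aging comparison in white matter asks how these genes differ between 21 and 4 months in the corpus callosum. With all 8 libraries none of the 43 genes was called in the edgeR quasi-likelihood test, beside 0% of the 16237 genes tested, while 12 genes had an unadjusted p under 0.05, all 12 higher at 21 months, of 1316 such genes in all. DESeq2 called 0 of the 43, beside 2.27% of all genes, and limma-voom with quality weights 0 of the 43, beside 0% of all genes. The median log2 difference of the genes was 1.30, with 40 of 43 above 0, against a median of 0.02 and 51.1% above 0 over all genes tested. Without the myelin-rich library it was 0.61, with 39 of 43 above 0, 8 at an unadjusted p under 0.05 and 0 called, beside 0.00571% of all genes called. The sizes thus depended on that library, which leaves a single young white matter library once it is taken out.

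By role, without that library, the medians were 0.93 for the sensors (5 of 5 above 0), 0.31 for the transcription factors (4 of 5), 0.34 for the ISG15 system (7 of 8) and 0.88 for the RNA effectors (10 of 12). They were 0.47 for the nucleotide enzymes (2 of 2), 0.59 for the GTPases (3 of 3), 0.79 for the membrane proteins (4 of 4) and 0.74 for the growth and death genes (3 of 3 tested). The largest difference by that fit was in Ifi27l2a, a small membrane protein with 0.833 to 14.1 CPM over the libraries, at 2.66 ± 1.41. Cxcl10 differed by 2.20 ± 0.661 with all 8 libraries (adjusted p = 0.615) and 1.55 ± 0.494 without the myelin-rich one (adjusted p = 1). For Samd9l the values were 2.18 ± 0.599 and 1.77 ± 0.615, for Ifi204 1.98 ± 0.555 and 1.51 ± 0.497, and for Ifit3 1.89 ± 0.53 and 1.49 ± 0.542, with the same adjusted p-values as Cxcl10.

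Of the 43 genes, 34 were higher in both aged than in both young white matter libraries and 0 were lower, beside 19.8% and 15.4% of all genes. The myelin-rich library was the lowest of the 8 for 38 of the 43 genes, against 35.5% of all genes. Without it, 36 were higher in both aged libraries than in the remaining young one and 4 were lower (Stat2, Parp9, Oas3 and Oasl1), beside 35.7% and 33.6% of all genes. That remaining library was the lowest of the 7 for 17 of the 43, against 13.6% of all genes.

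**Figure D3:**
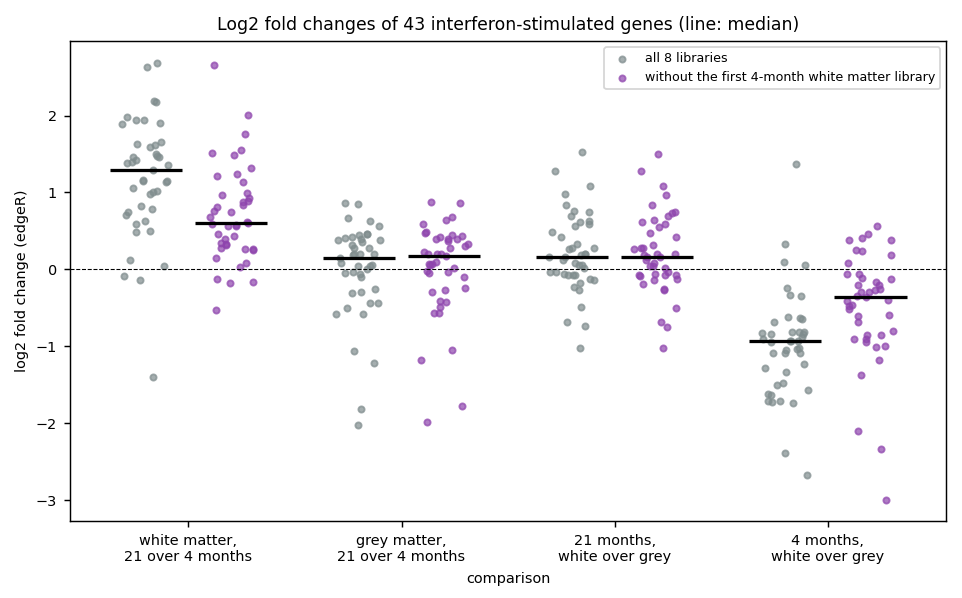
Log2 fold changes (y axis, edgeR) of the 43 tested interferon-stimulated genes in 4 comparisons (x axis), each point 1 gene and each line the median, with all 8 libraries in grey and without the first young white matter library in purple. The white matter aging median is 0.61 without that library and 1.30 with it, while the 21-month region median is 0.16 in both fits.

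The same comparison was made in grey matter. None of the 43 genes was called, beside 0% of all genes, by edgeR, DESeq2 or limma-voom, and 0 had an unadjusted p under 0.05, of 119 such genes in all. The median log2 difference was 0.15, with 27 of 43 above 0, against -0.02 and 48.6% over all genes. Those without overlap were 7 higher genes (Sp100, Usp18, Parp14, Ifit3, Oasl2, Gbp3, Slfn5) and 3 lower genes (Irf9, Ifit1, Oasl1), beside 17.1% and 17.4% of all genes. Slfn5 differed by 0.86 ± 0.565 (adjusted p = 1) and Ifit3 by 0.87 ± 0.518 (adjusted p = 1). At the other end, Isg20 was at -2.02 ± 0.973 and Rsad2 at -1.81 ± 0.937 (adjusted p = 1 for each), and the first young grey matter library held 83.2 and 47.3 CPM of them. Without that library, 25 of the 43 were higher in aged grey matter and 3 lower without overlap, beside 34.7% and 32.4% of all genes, and the median was 0.41.

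The age by region test compares the aging difference in white matter with that in grey matter. DESeq2 called 0 of the 43 genes, beside 0.123% of all genes, and limma-voom 0 of the 43, beside 0%. EdgeR called 0 of the 43, beside 0% of all genes, and 3 had an unadjusted p under 0.05 (Irf9, Samd9l and Ifi27l2a), of 455 such genes in all. The median was 1.08, with 42 of 43 above 0, and 0.62 with 38 of 43 above 0 without the myelin-rich library, against 0.03 and 51.9% over all genes in that fit. For Samd9l the difference between regions was 2.03 ± 0.815 with all 8 libraries (adjusted p = 1) and 1.60 ± 0.752 without that library (adjusted p = 1). A difference between the regions in aging was therefore not called for any of the genes.

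**Figure D4:**
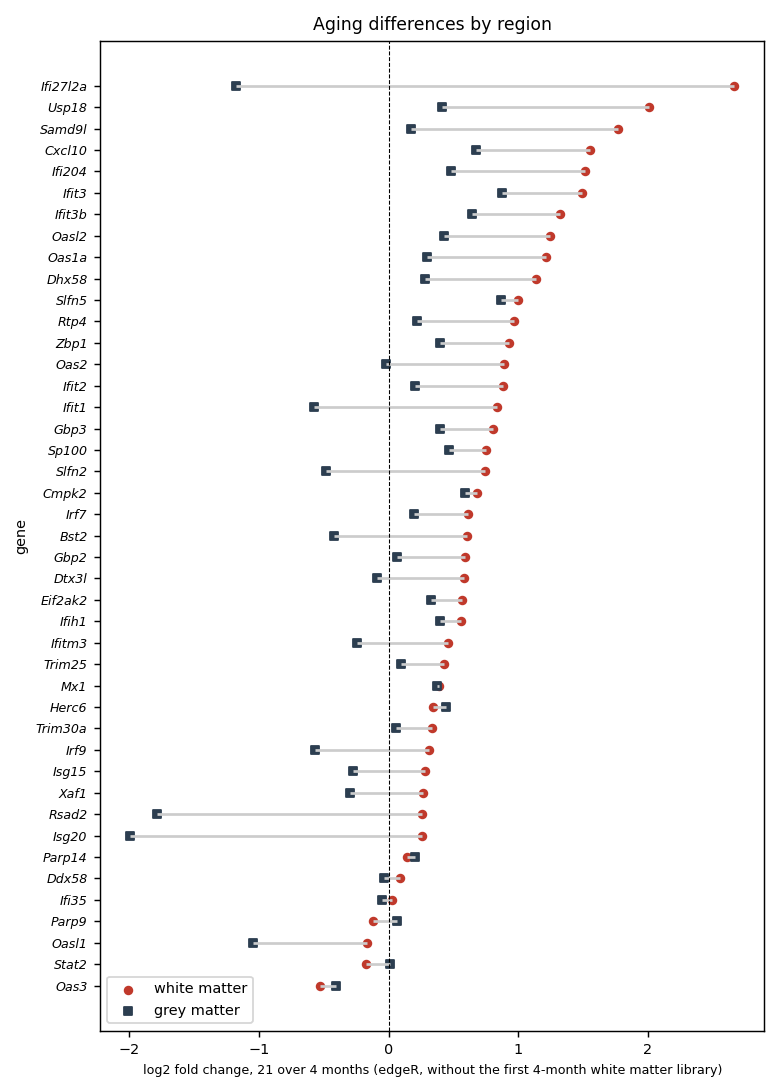
Log2 fold change of 21 over 4 months (x axis, edgeR without the first young white matter library) for each of the 43 tested genes (y axis), red circles for white matter and dark squares for grey matter. Ifi27l2a, Usp18, Samd9l and Cxcl10 lie farthest right in white matter, and Isg20 and Rsad2 farthest left in grey matter.

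At 21 months, white and grey matter were compared without any 4-month library in the contrast. The comparisons share libraries with each other, so they are not independent. The fit of all 8 libraries called 0 of the 43 genes, beside 0% of all genes, with 0 at an unadjusted p under 0.05 of 381 in all. DESeq2 also called 0 of the 43, beside 0.333% of all genes, and limma-voom 0 of the 43, beside 0.696% of all genes. Without the myelin-rich library in the fit, edgeR called 0 of the 43, beside 0.0742% of all genes called higher, 0.0343% called lower and 0.109% either way. The median was 0.16, with 28 of 43 above 0, against 0.02 and 51.7% over all genes. Without overlap, 16 genes were higher in white matter (Ifih1, Ifi204, Irf9, Stat2, Usp18, Parp9, Parp14, Ifit1, Ifit2, Ifit3, Oas1a, Eif2ak2, Mx1, Bst2, Slfn2, Cxcl10) and 5 were lower (Ifit3b, Oas3, Isg20, Gbp3, Ifitm3), beside 20.9% and 19.4% of all genes. After Cxcl10, the next largest well-counted differences were in Ifit3 at 1.09 ± 0.509 (adjusted p = 1) and Bst2 at 0.98 ± 0.83 (adjusted p = 1). On the lower side Oas3 was at -1.02 ± 0.794 and Ifitm3 at -0.68 ± 0.542.

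At 4 months, white matter was again set against grey matter. None of the 43 genes was called by edgeR, beside 0% of all genes, and 4 had an unadjusted p under 0.05, all lower in white matter, of 1446 such genes in all. DESeq2 called 0 of the 43, beside 3.17% of all genes, and limma-voom 0 of the 43, beside 0% of all genes. The median was -0.93, with 4 of 43 above 0, and -0.36 with 9 of 43 above 0 without the myelin-rich library, against 0.01 and 50.6% over all genes with all 8. Without overlap, 0 genes were higher and 21 lower in white matter, beside 13.3% and 15.5% of all genes. Without the myelin-rich library the counts were 6 higher and 23 lower, beside 31.2% and 32.2%, and without the first grey matter library 2 higher and 23 lower, beside 26.9% and 29.5%. Isg20 was at -2.67 ± 1.01, Ifitm3 at -1.72 ± 0.557, Oasl2 at -1.71 ± 0.653 and Irf9 at -0.93 ± 0.355, each with an adjusted p of 0.479 to 0.519.

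**Figure D5:**
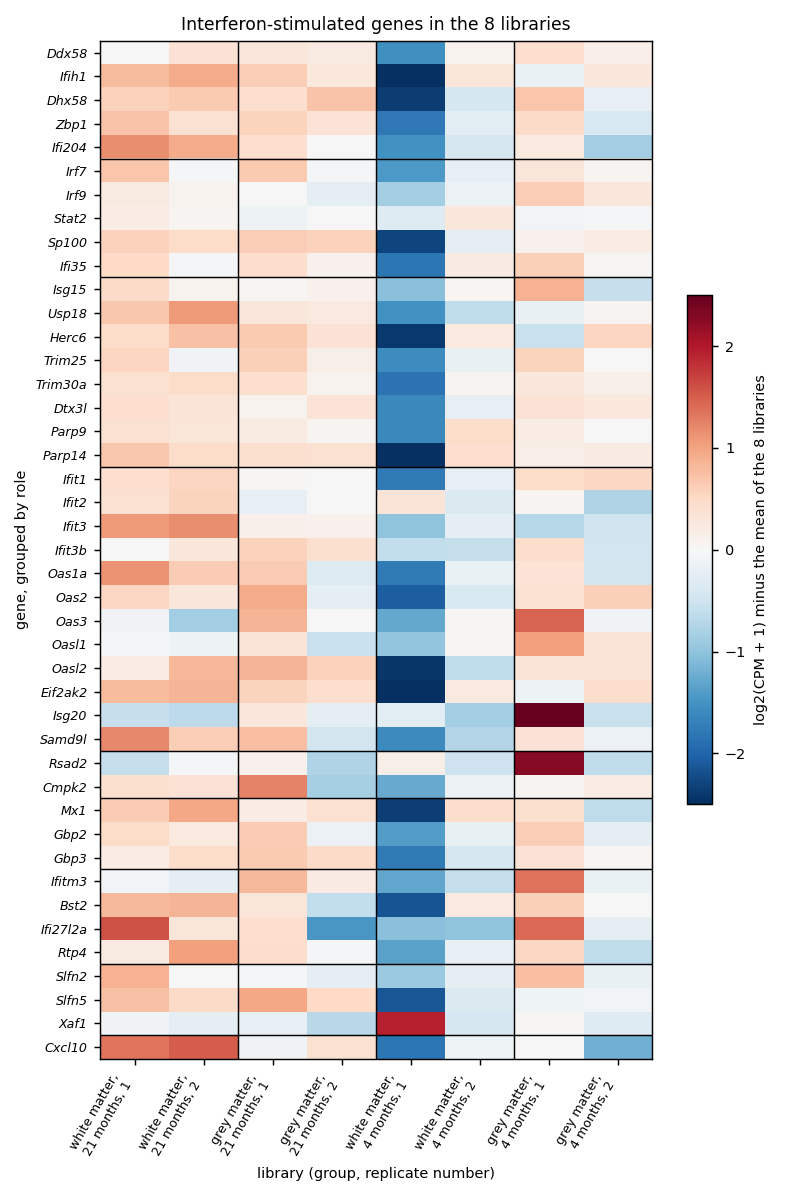
Heat map of log2(CPM + 1) minus the mean of the 8 libraries (colour) for the 43 tested genes (y axis, grouped by role between black lines) in each library (x axis, group and replicate number). The column of the first young white matter library is blue for most genes, the lowest of the 8 for 38 of 43, with Xaf1 red at 76.1 CPM.

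The interferons themselves were scarcely read. Of 15 interferon ligand genes, 10 had no count in any library and the highest count of any in 1 library was 5, so none was tested. Over receptors, kinases, sensing adaptors, transcription factors and negative regulators, 29 genes were tested. In white matter 26 of the 29 lay above 0 with age (median 0.60), and 17 of 29 without the myelin-rich library (median 0.13). In grey matter 7 of 29 did (median -0.28), and none of the 29 was called in any of the 5 comparisons with all 8 libraries, beside 0% of all genes. Without the myelin-rich library, Nlrc5, which activates MHC class I genes, differed with age by 0.99 ± 0.413 in white matter (adjusted p = 1) and 0.81 ± 0.328 in grey matter (adjusted p = 0.938). The receptor gene Ifnar1 differed by 0.58 ± 0.258 in white matter (adjusted p = 1).

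Among 16 genes tied more to interferon gamma, 15 were tested. Their median aging difference in white matter was 1.33, with 13 of 15 above 0, and 0.51 with 11 of 15 above 0 without the myelin-rich library. Cd274, which encodes PD-L1, a ligand that restrains T cells, had 130 and 127 CPM in aged white matter, 42.1 and 35.5 CPM in aged grey matter, 14.4 and 45.2 CPM in young white matter, and 25.9 and 36.4 CPM in young grey matter. Like Cxcl10, it was highest in both aged white matter libraries, and in the fit of the 4 aged libraries alone it was called higher in white matter by 1.71 ± 0.177 on the log2 scale (edgeR, adjusted p = 0.00131). It was not called with all 8 libraries in the fit (1.72 ± 0.525, edgeR, adjusted p = 1) or without the myelin-rich library (1.72 ± 0.249, edgeR, adjusted p = 0.0687). Gbp7, a guanylate-binding protein, ran the other way, with 22.6 and 33.3 CPM in aged white matter and 51.6 and 61.3 CPM in aged grey matter. Ciita, Ifi47 and Irgm2 were also lower in both aged white than in both aged grey matter libraries. Ifi30, Igtp, Gbp4, Gbp5 and Gbp6 were higher. Over all genes 19.4% were lower and 20.9% higher in that way. Cd274 and Gbp7 are examples, and not every gene of this list with a large difference is named.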

How the data were processed

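The authors deposited estimated counts per gene (expected counts) for the 8 libraries; the submitters' processing notes name Partek and DESeq2 without version or role. No aligner, genome build, annotation or strand setting is named in those notes or the labels. Counts were rounded, and 12 of the 44 genes had values that were not whole in at least 1 library. edgeR 4.0.16 in R 4.3.3 scaled libraries by TMM, filtered low counts with filterByExpr (16237 genes kept), and fitted the 4 group means by quasi-likelihood, robust, with all 8 libraries and again leaving out 4-month white matter replicate 1 (17509 genes kept). P-values were adjusted by Benjamini-Hochberg over all genes tested and called under 0.05. Alternatives used DESeq2 1.42.0, limma 3.58.1, RLE scaling, other filters, a replicate block, the compared groups alone, and each library left out. The procedure was tested on simulated data. The genes and lists were chosen with earlier results of these data known. Named genes are those called with all 8 libraries, without 4-month white matter replicate 1, or in the compared groups alone. Also named are the 2 of each role with the highest mean count. The 5 with the largest differences in each two-group comparison without that replicate were added, given 50 or more mean counts in the group where they are highest. Genes outside that rule were named after their values were seen. The values of 1 further gene of the pathway list are not reported here.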

Additional observations from a re-analysis of the deposited data

Results flagged for a closer look

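For 4 of the 43 genes the libraries moved one way in one group and the opposite way in the other, without overlap in either. The genes were picked by that rule, so large age by region terms follow from the choice and give no separate support. The share of all genes that meet the rule was not counted. Ifit1 and Usp18 had 1 count each in the first 4-month white matter library, which enters their 4-month white matter means. The ratio of mean CPM at 21 over 4 months was 3.24 in white matter and 0.667 in grey matter for Ifit1, which binds viral RNA, and 1.55 in white matter and 0.668 in grey matter for Irf9. The ratio of white over grey matter was 1.48 at 21 months and 0.304 at 4 months for Ifit1, 1.21 and 0.522 for Irf9, 1.56 and 0.523 for Slfn2, and 1.68 and 0.336 for Usp18. The difference between these ratios was not tested as a ratio. On the log2 scale the age by region term was 2.19 ± 1.15 for Ifit1, 1.21 ± 0.499 for Irf9, 1.56 ± 0.706 for Slfn2 and 2.22 ± 1.05 for Usp18 with all 8 libraries (edgeR, adjusted p = 1 for each). Without the first 4-month white matter library it was 1.41 ± 0.836, 0.88 ± 0.374, 1.23 ± 0.65 and 1.59 ± 0.973 (adjusted p = 1 for each).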

How the results depend on the processing

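With all 8 libraries edgeR called 0 genes and 0 of the 43 in every comparison. Across all genes, DESeq2 called 54 (white against grey matter at 21 months), 515 (4 months), 369 (white matter aging) and 20 (age by region), limma-voom with quality weights 113 at 21 months, and the 21-month libraries alone 232. With no filter on low counts the calls were 147, 1113, 963, 17 (grey matter aging) and 470. Among the 43 genes they were 2 at 4 months (Isg20, Ifitm3) and 4 with white matter aging (Cxcl10, Ifi204, Oasl2, Samd9l). More genes are tested without the filter, and the share of all genes called there was not worked out. The counts of 2 and 4 therefore have no background beside them. In the 21-month libraries alone 1 was called, Cxcl10, beside 1.58% of all genes. Leaving out 1 library moved the median from 0.61 to 2.49 (white matter aging), -0.12 to 0.41 (grey matter aging), 0.09 to 0.41 (21 months), -2.24 to -0.36 (4 months) and 0.62 to 2.27 (age by region). Genes called ran from 0 to 4491, 0 to 0, 0 to 19, 0 to 4222 and 0 to 2422, and of the 43 from 0 to 29 (white matter aging), 0 to 22 (4 months) and 0 to 20 (age by region), the highest without the second 4-month white matter library, where only the myelin-rich one stands for that group and is assumed to vary like the others. Without the first 4-month white matter library, added after seeing the data, 6 genes without overlap were higher at 4 months, beside 31.2% of all genes. Lower with white matter aging were 4, beside 33.6%. Without the first grey matter library, 2 were higher at 4 months, beside 26.9%, and 25 higher with grey matter aging, beside 34.7%. With all 8 libraries those shares of all genes were 13.3%, 15.4%, 13.3% and 17.1%. The shares over all genes thus rose as well once a group was cut to 1 library. A cause beyond that was not tested. With the replicate block 0 of the 43 were called and the medians were 0.20, -0.95, 1.37, 0.11 and 1.20; same-numbered deviations of the 2 regions correlated at 0.0561 at 21 months and 0.415 at 4 months, and no label says that a number marks a shared mouse, so whether the numbers pair the samples is not known. Of 1702 alternatives for 115 named values, 1659 kept their side of the threshold, 43 passed it and 61 uncalled values changed sign. No named value was called in the fit of all 8 libraries, so none could lose a call. Some of the 43 came from fits with 1 library left in a group, and the tally does not measure stability. With 2 libraries a group, an exact permutation test cannot go below 0.333.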

Other observations

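Xaf1, which promotes cell death, was the reverse of most of the genes in the myelin-rich library. It had 17.9 and 16 CPM in 21-month white matter, 16.5 and 11.4 CPM in 21-month grey matter, 76.1 and 14 CPM in 4-month white matter, and 19.6 and 15.1 CPM in 4-month grey matter. The value of 76.1 CPM was the highest of the 8, in the library where 38 of the 43 genes were lowest. Replicates of the 4-month white matter group differed most, with 4 of the 43 genes higher in the first library, against 25 of 43 in 21-month white matter, 36 of 43 in 21-month grey matter and 30 of 43 in 4-month grey matter. Over all genes those shares were 47.2%, 49.6%, 48% and 52%.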
